A study of Sparus aurata with 5 samples.

Results

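Claudin-15 (cldn15) was 1 of 14 target genes quantified with qPCR in the anterior (proximal) intestine of gilthead seabream (Sparus aurata) juveniles. Its values were taken by its name in the deposited tables, and the gene was picked with earlier results of these data known. A value was given for 59 of the 60 fish, 12 in each of 5 dietary groups except GH5, where 1 fish had neither a cycle nor a ratio and n was 11. The control diet (CT) held no microalgae. GB5 and GB10 held 0.5 and 1% of the microalgal ingredient LB-GREENboost, and the same levels of LB-GUThealth were used in GH5 and GH10. According to the paper, LB-GREENboost holds a larger share of microalgae than LB-GUThealth. The same level of both is thus not the same amount of algae. All fish were juveniles of commercial origin on feeds of matched protein and lipid, and the labels give neither genotype nor age. Fish of a diet shared tanks and the tables name no tank, so each fish was taken as a replicate, and any difference between tanks would make the p-values lower than they should be. The RNA came from whole tissue, in which fewer cells of a type and less RNA per cell cannot be told apart. Apart from cldn15 itself, the panel holds no gene known mainly from the gut epithelium, so the labelled tissue was checked against no independent marker. In RefSeq, the seabream gene symbols that begin with cldn15 are cldn15a and cldn15la. Genes of this type under other symbols were not searched for. Which gene the assay reads is not settled by the sources used here.

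Claudins are membrane proteins of the tight junction, the seal between neighbouring epithelial cells. Some close the space between cells and others line pores that let ions of a given charge through. Claudin-15 is a pore former: in the mouse intestine it lets cations pass between enterocytes and returns sodium to the lumen, where sodium-coupled transporters use it to take up glucose. In zebrafish, cldn15la, a gene of this type, is expressed in the gut epithelium. Claudin-3, claudin-4 and claudin-5 are known from mammals mainly as sealing claudins, and occludin is a further protein of the same junction.

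The question for abundance was where cldn15 stands among the genes of the panel. It was amplified early. Its quantification cycle, the PCR cycle at which the product crosses a threshold, was 24.26 ± 0.324 (SD, n = 59), where 1 cycle fewer stands for about 2 times more template. The lowest cycle of a fish was 23.76 and the highest 25.085, a range of 1.325 cycles. By mean cycle cldn15 ranked 2 of the 14 genes, behind the occludin gene oclnc at 24.18. Among the other claudins, cldn7b followed at 24.51 and cldn4l at 24.97, and then came cldn5 at 28.07, cldn24 at 30.23, cldn3 at 31.19 and cldn4 at 32.55. The mean of cldn15 and that of cldn7b lay 0.249 cycles apart, less than the SD of either gene between fish, whereas cldn4 came up 8.29 cycles later than cldn15. Both genes were measured in the same fish, and the difference of their cycles within fish was not tested. Primer efficiency and the amount of cDNA in a reaction both enter each cycle. For that amount the paper gives a range, without saying which gene had which. The order is thus one of cycles, not of molecules.

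Relative expression is the ratio to eef1a, the elongation factor used as reference, scaled to a CT mean of 1. In fish fed CT it ran from 0.693 through a median of 0.983 to 1.45, with a mean of 1.00 ± 0.202 (SD, n = 12). The GB5 fish had the lowest value of all, 0.473, a median of 0.922 and a highest value of 1.86, with a mean of 1.03 ± 0.389 (SD, n = 12). In GB10 the values ran from 0.593 through 0.983 to 1.36, with a mean of 0.952 ± 0.224 (SD, n = 12). These 3 groups overlapped, and 2 of the GB5 fish lay above the highest CT fish.

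The GH5 fish lay closest together, from 0.717 through a median of 0.874 to 1.16, with a mean of 0.912 ± 0.136 (SD, n = 11). The GH10 fish ran from 0.664 through a median of 1.28 to 1.91, with a mean of 1.27 ± 0.416 (SD, n = 12). Of the 12 GH10 fish, 5 lay above every CT fish and 7 above every GH5 fish, while 1 lay below every GH5 fish. GH10 thus had the highest median and GH5 the lowest, with overlapping fish.

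**Figure D1:**
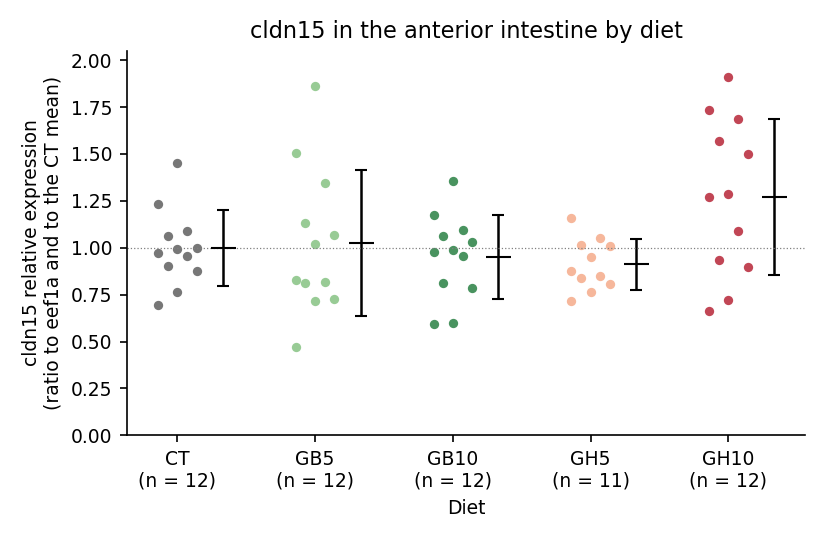
Relative expression of cldn15 (ratio to eef1a and to the CT mean, linear axis from 0) in each fish by diet, with the mean ± SD beside the points. The GH10 fish spread from 0.664 to 1.91 and the GH5 fish from 0.717 to 1.16, around means of 1.27 and 0.912.

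The first comparison asked whether cldn15 differed among the dietary groups. On the log2 scale of the ratio it did not pass the test (one-way F = 1.97, permutation test, p = 0.115, Benjamini-Hochberg value over 14 genes 0.541). In this permutation test 7.14% of the 14 genes were under p = 0.05. On the linear scale of the ratio, cldn15 was under that threshold (permutation p = 0.0412), with a Benjamini-Hochberg value of 0.282. There cldn4l was under it as well (permutation p = 0.0402). With 1 fish left out at a time, the log2 scale came under 0.05 in 2 of 59 runs. These gave permutation p = 0.0286 without GH10 fish A9 and 0.0387 without GH10 fish A1 (A1 to A12 name the fish of a diet). The highest permutation p was 0.254, without GH10 fish A11.

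For all supplemented fish minus CT, the difference in log2 cldn15 was 0.02 (SE 0.14, 95% interval −0.26 to 0.29, permutation p = 0.896), with 7.14% of genes under 0.05. That share is oclnl alone (permutation p = 0.0194), an occludin gene whose ratio uses another list of eef1a cycles than that of cldn15. Between ingredients, LB-GUThealth minus LB-GREENboost, the difference was 0.14 (SE 0.13, interval −0.11 to 0.40, permutation p = 0.256), with 7.14% of genes called. For dose, 1% minus 0.5%, it was 0.18 (SE 0.13, interval −0.07 to 0.43, permutation p = 0.156). No gene was under 0.05 for dose (0%), and the p of cldn15 was the lowest of the 14. The difference of dose effects between ingredients (interaction) was 0.47 (SE 0.25, interval −0.04 to 0.98), with permutation p = 0.0670 and a Benjamini-Hochberg value of 0.469. Here again 7.14% of genes were called on the log2 scale. The linear scale gave permutation p = 0.0234 for cldn15 with a Benjamini-Hochberg value of 0.164, and cldn4l was under 0.05 there as well (permutation p = 0.00600). Without GB5 fish A6, GB10 fish A10, GH10 fish A1 or GH10 fish A9, the log2 interaction came to permutation p = 0.0244, 0.0475, 0.0346 or 0.0295. The other runs, each without 1 fish, stayed above 0.05, up to permutation p = 0.117 without GB5 fish A2.

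All 10 pairs of diets were compared for cldn15. The widest was GH10 minus GH5, at 0.42 on the log2 scale of the ratio (SE 0.17, interval 0.08 to 0.75, 1.33-fold), with permutation p = 0.0172 and 0.116 after adjustment over the 10 pairs. The adjusted p on the linear scale was 0.0386. With 1 fish left out at a time, the adjusted permutation p on the log2 scale was under 0.05 in 2 of 59 runs. It was 0.0314 without GH10 fish A9 and 0.0425 without GH10 fish A1, and the highest was 0.234, without GH10 fish A11. GH10 minus GB10 was 0.38 (adjusted permutation p = 0.164), GH10 minus GB5 0.33 (adjusted permutation p = 0.297) and GH10 minus CT 0.30 (adjusted permutation p = 0.393). In the other 6 pairs, none of which held GH10, differences lay between −0.12 and −0.03 and the adjusted p was 0.952 or higher. Doubling LB-GREENboost from GB5 to GB10 moved cldn15 by −0.05 (interval −0.39 to 0.28).

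Since the log2 ratio is the eef1a cycle minus the cldn15 cycle, up to a constant, each difference splits into what either gene's cycle contributed. The cldn15 cycle had means within 0.14 cycles of each other. It was 24.3 ± 0.382 in CT (SD, n = 12) and came to 24.2 ± 0.350 in GB5 (n = 12) and 24.3 ± 0.301 in GB10 (n = 12). Fish fed GH5 averaged 24.3 ± 0.260 (n = 11) and those fed GH10 24.2 ± 0.341 (n = 12). The eef1a cycle of the same fish ran from 18.62 ± 0.217 in GH5 to 18.95 ± 0.480 in GH10. Of the 0.42 between GH10 and GH5, 0.32 (77.9%) stood in the eef1a cycle and 0.09 in the cldn15 cycle. Of the interaction of 0.47, 0.29 stood with eef1a and 0.18 with cldn15. For GH10 minus CT the parts were more even, 0.16 and 0.14.

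Tested without a reference, the cldn15 cycle did not pass the test among diets (permutation p = 0.813), and its difference between GH10 and GH5 was 0.09 (SE 0.14, permutation p = 0.508, adjusted 0.962). The eef1a cycle gave permutation p = 0.308 among diets and 0.0498 for GH10 against GH5, which was 0.279 after adjustment over the 10 pairs. A cycle taken alone also carries the amount and quality of the cDNA, and their part in the result was not tested.

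**Figure D2:**
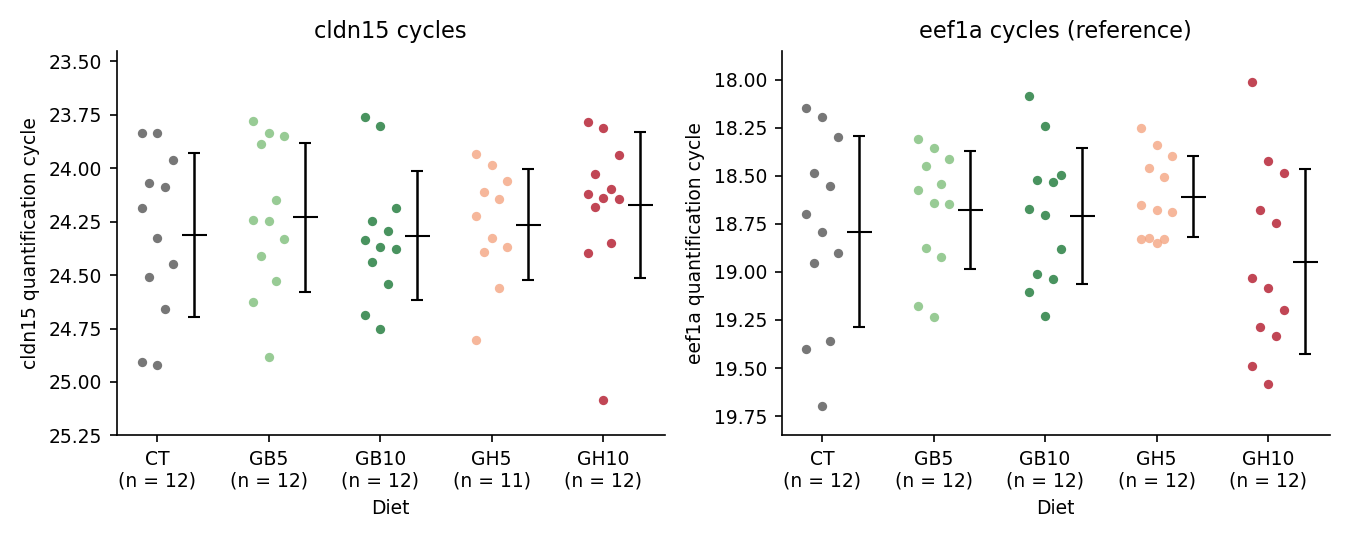
Quantification cycles of cldn15 (left) and of the reference eef1a (right) in each fish by diet, with the mean ± SD. The vertical axes are turned so that fewer cycles, which stand for more template, are at the top. The GH10 and GH5 means lie 0.32 cycles apart for eef1a and 0.09 for cldn15.

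How far the fish of a diet lay from each other was compared next. The SD of log2 cldn15 was 0.54 in GB5 and 0.51 in GH10, against 0.36 in GB10, 0.28 in CT and 0.21 in GH5. A test of the spread (absolute distances from the diet median, permutation p = 0.0282, Benjamini-Hochberg value 0.198) called cldn15 and tlr9, 14.3% of the 14 genes. On the linear scale the permutation p was 0.00484 (Benjamini-Hochberg value 0.0678). There oclnl (permutation p = 0.0175) and tlr9 (permutation p = 0.0268) were under 0.05 as well. The cldn15 cycle alone was not called for spread (permutation p = 0.584), and eef1a gave 0.0724. The call for cldn15 was lost when GB5 fish A2, A4, A5, A9 or A11 was left out (permutation p = 0.0870, 0.0847, 0.0797, 0.0557 and 0.0634).

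The spread of a ratio depends on whether its 2 cycles move together, and this was looked at after the spread had been seen. Over the 59 fish, with diet means removed, the cldn15 cycle rose with that of eef1a (Pearson r = 0.375, permutation p = 0.00706, Spearman rho = 0.361, permutation p = 0.00812). Without the 2 fish farthest from the median eef1a cycle, r was 0.363. With the second deposited list of eef1a cycles, which the cldn15 ratios do not use, r was −0.02 (permutation p = 0.872), and over both lists the Benjamini-Hochberg value of the first was 0.0141. Within diets the relation ranged widely. In CT r was 0.822 (rho = 0.788, permutation p = 0.00136, Benjamini-Hochberg value over 5 diets 0.00680). It was 0.613 in GH5 (permutation p = 0.0433, Benjamini-Hochberg value 0.108), 0.391 in GB10 (permutation p = 0.212), 0.268 in GH10 (permutation p = 0.413) and −0.338 in GB5 (permutation p = 0.281).

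The CT value stayed between 0.787 and 0.882 when any CT fish was left out, whereas in GH10 r ran from −0.07 to 0.37. In CT, cycles with an SD of 0.382 for cldn15 and 0.498 for eef1a gave a log2 ratio with an SD of 0.28. In GB5, SDs of 0.350 and 0.309 gave one of 0.54. The difference in r among the 5 diets had permutation p = 0.0353. With ranks the permutation p was 0.0759. Leaving out CT fish A4, A5 or A12 gave permutation p = 0.0510, 0.0621 or 0.0566, and leaving out GB5 fish A2, A4 or A6 gave 0.0689, 0.0602 or 0.0669, so the call was lost without any of these 6 fish.

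**Figure D3:**
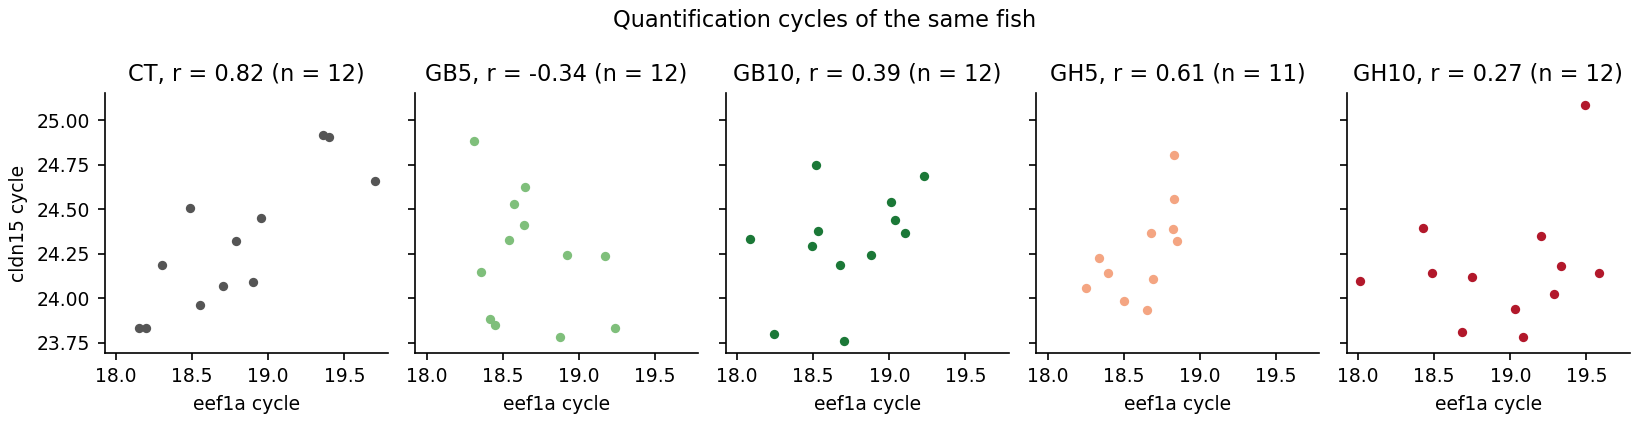
Quantification cycle of cldn15 against that of eef1a in the same fish, 1 panel per diet with shared axes, each point a fish and r the Pearson correlation. The points rise together in CT (0.822) and GH5 (0.613) and not in GB5 (−0.338).

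Within diets the SD of log2 cldn15 was 0.405, the lowest of the 14 genes, and that of its cycle was 0.331, behind cldn4l at 0.322. The 14 genes include the occludins, whose ratios use the second eef1a list, and igm, whose reference was not checked. Among the genes whose ratios use the same eef1a cycles, the SD of log2 cldn15 was also the lowest. In the same fish the SD of cldn15 was 0.236 times that of cldn3 and 0.266 times that of cldn4 (permutation p = 1e-05 for both, the smallest the permutations can give). It was 0.453 times that of cldn24 (permutation p = 2e-05) and 0.737 times that of cldn5 (permutation p = 0.00902), so 4 of the 6 other claudins varied more after Benjamini-Hochberg adjustment. The ratio of SDs was 0.842 for cldn7b (Benjamini-Hochberg value 0.199) and 0.935 for cldn4l (0.569). By cycles alone cldn5 no longer passed (ratio 0.797, permutation p = 0.168), nor did it in the 45 fish with all genes (permutation p = 0.112). The genes that varied more than cldn15 under each setting, cldn3, cldn4 and cldn24, were also the claudins with the latest cycles.

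Of the variance of log2 cldn15 within diets, 62.7% went with the eef1a cycle and 37.3% with the cldn15 cycle. A share is the covariance of the log2 ratio with a cycle divided by the variance of that ratio. The gene's own cycle has its sign turned, so both shares add up to the whole. The cycles are themselves correlated, so a share is not the squared r with a cycle. For cldn4l the share with eef1a was close to that of cldn15, at 62.0%. It was 46.0% for cldn5 and 44.6% for cldn7b, and it fell to 24.3% for cd4, 20.7% for tlr9 and 11.8% for cldn24. For il10, cldn3 and cldn4 it was 5.20, 4.09 and 3.26%. Across fish, log2 cldn15 correlated with the eef1a cycle at r = 0.653 and with its own cycle, sign turned, at 0.457, as a description of a ratio by its parts.

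**Figure D4:**
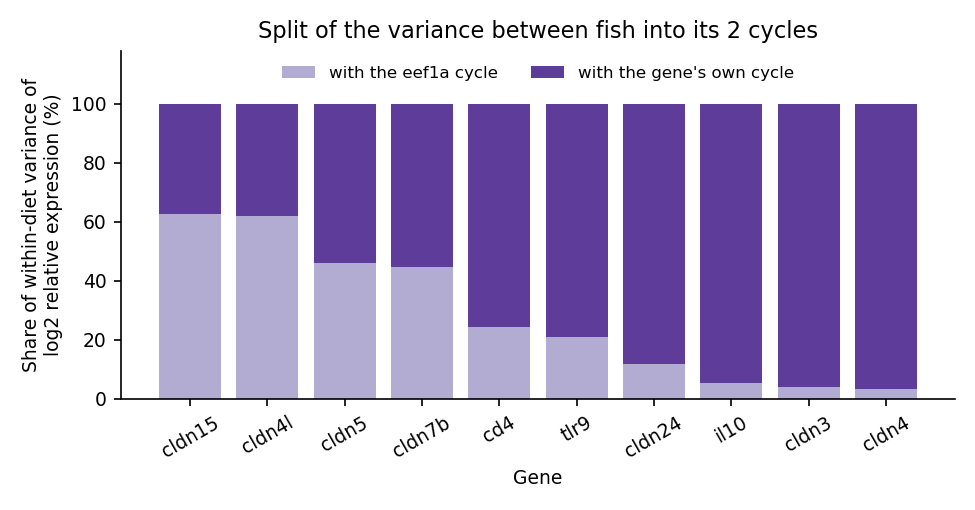
Share of the variance of log2 relative expression within diets that goes with the eef1a cycle (pale) and with the gene's own cycle (dark), in percent, for 10 genes whose ratios use the same eef1a cycles. Shares are covariances of the log2 ratio with each cycle over the variance of the ratio. The share with eef1a runs from 62.7% for cldn15 to 3.26% for cldn4.

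The last question was which genes moved with cldn15 from fish to fish. Diet means were removed and 10 genes were compared. The values of all but igm share the eef1a cycle of the fish, and for igm this was not checked. Permuting fish breaks that sharing, so a low p between ratios, here or within a diet, can come from the shared cycle alone. The ratio of cldn15 correlated with that of 5 genes, 4 of them among the 6 other claudins. The closest was cldn5, a sealing claudin best known from endothelium (r = 0.569, rho = 0.535, permutation p = 1e-05, the smallest the permutations can give, Benjamini-Hochberg value 1e-04). Next was cldn4l (r = 0.466, rho = 0.431, permutation p = 0.00051, Benjamini-Hochberg value 0.00255), and then cldn24 (r = 0.373, rho = 0.362, permutation p = 0.00818, Benjamini-Hochberg value 0.0204). These were the 3 genes most like cldn15 by r.

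The receptor gene tlr9, whose product senses microbial DNA, followed (r = 0.361, rho = 0.347, permutation p = 0.00571, Benjamini-Hochberg value 0.0190), with cldn7b after it (r = 0.334, rho = 0.367, permutation p = 0.0142, Benjamini-Hochberg value 0.0285). For cldn4 and cldn3 r was 0.282 and 0.253, with Benjamini-Hochberg values of 0.0601 and 0.0658. The T-cell gene cd4 (r = 0.196), the immunoglobulin gene igm (0.107) and the cytokine gene il10 (0.030) did not pass over all diets. Without the 2 fish farthest from the median of cldn15, r was 0.516 for cldn5, 0.479 for cldn4l, 0.390 for cldn24, 0.331 for tlr9 and 0.313 for cldn7b. Leaving out any fish kept r between 0.531 and 0.611 for cldn5 and between 0.420 and 0.553 for cldn4l.

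Within diets, cldn5 and cldn15 correlated at 0.622 in CT, 0.611 in GB5, 0.648 in GB10 and 0.656 in GH10, and at −0.121 in GH5. None of these passed after adjustment over all genes and diets. In that family of 10 genes in each of 5 diets, 5 relations passed, each with a Benjamini-Hochberg value of 0.0410. Among claudins they were cldn4l in CT (r = 0.763, permutation p = 0.00260) and cldn7b in GH5 (r = 0.853, permutation p = 0.00160). Among immune-related genes they were tlr9 in GH10 (r = 0.831, permutation p = 0.00330), igm in GH10 (r = 0.771, permutation p = 0.00370) and cd4 in GH5, where r was below 0 (r = −0.805, permutation p = 0.00410). By cycles alone r was 0.562 for tlr9 in GH10 (n = 10) and −0.114 for cd4 in GH5, and neither passed. For cldn4l in CT it was 0.611 (permutation p = 0.0349, Benjamini-Hochberg value 0.314). The igm relation has no such check, because 4 of the 12 GH10 fish had an igm cycle equal to that of cldn15. What these equal cycles add to its r was not tested. Whether these relations differ from those in the other diets was not tested.

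Without the shared reference r was smaller for all 5 genes that had passed. Between the cycles themselves r was 0.250 for cldn5, 0.096 for cldn4l and 0.059 for cldn7b. None of 9 genes passed the Benjamini-Hochberg adjustment (permutation tests), and 2 were under p = 0.05 before it: cldn24 (r = 0.307, rho = 0.208, permutation p = 0.0197) and cldn4 (r = 0.295, rho = 0.299, permutation p = 0.0286). The gene igm was left out here because its cycle was equal to that of cldn15 in 20 of 60 fish, 4 in each diet, within a tolerance of 1e-06. No cycle of any other target gene matched the cldn15 cycle of its fish. With the eef1a cycle partialled out, none of 9 passed and 1 was under 0.05 before adjustment, while r came to 0.00 for cldn4l, −0.05 for cldn7b and 0.24 for cldn5. In GH5, the cycles of cldn7b and cldn15 still correlated at 0.796 (permutation p = 0.00330), with a Benjamini-Hochberg value of 0.148.

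When the mean cycle of the remaining claudins, cd4, il10 and tlr9 replaced eef1a, r was 0.803 for cldn4l, 0.754 for both cldn5 and cldn7b, 0.706 for cd4 and −0.402 for cldn4, and 5 of 9 genes passed. That mean had an SD within diets of 0.682 cycles, against 0.386 for eef1a, and is shared by the genes in the same way.

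**Figure D5:**
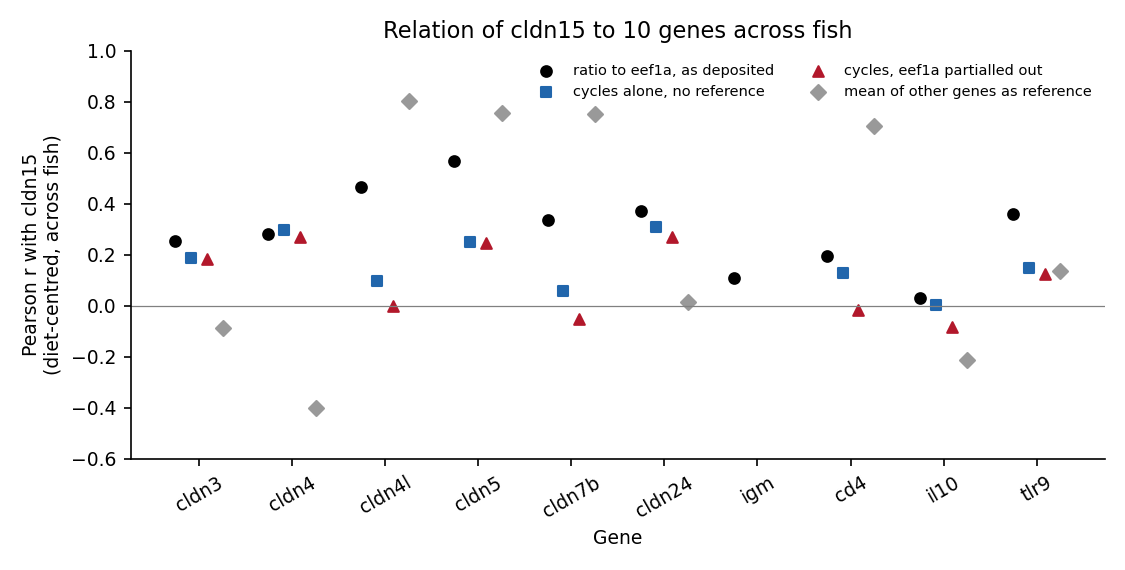
Pearson r between cldn15 and each of 10 genes across fish, with diet means removed, for the deposited ratios (circles), the cycles alone (squares), the cycles with eef1a partialled out (triangles) and another reference (diamonds). The gene igm has a circle only. For cldn5 r falls from 0.569 to 0.250 and for cldn4l from 0.466 to 0.096 between ratios and cycles.

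A ratio of cldn15 to another claudin needs no reference, because eef1a cancels. Over the diets none of the 6 such ratios passed a permutation test, before or after Benjamini-Hochberg adjustment. The p-values ran from 0.155 for cldn24 to 0.893 for cldn3, and the lowest Benjamini-Hochberg value was 0.493. Between GH10 and GH5, log2 cldn15 over cldn4l differed by −0.06 (SE 0.18). Over cldn5 the difference was 0.27 (SE 0.19), over cldn7b 0.31 (SE 0.21) and over cldn24 0.41 (SE 0.35). Over the late claudins it was 0.55 for cldn4 (SE 0.61) and −0.35 for cldn3 (SE 0.72). Without GH10 fish A7 the p for cldn15 over cldn4l was 0.0270. In the 45 fish with all genes, the p for cldn15 over cldn24 was 0.0196 (permutation test), with a Benjamini-Hochberg value of 0.118.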

How the data were processed

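Anterior intestines of seabream fed 5 diets were assayed by the authors with EvaGreen qPCR in 2 wells per fish and gene. Cycles were deposited without normalization and count doublings, a log2 scale. From them the authors derived the deposited ratio (relative expression, ΔΔCT method, to eef1a and the CT mean), with outliers removed. Of 2 deposited lists of eef1a cycles, the first gives the cldn15 ratio back in 59 of 59 fish (tolerance 1e-06) and the second in none. Both lists hold the same 60 values in another order, and the occludin ratios follow the second, so occludins were left out of the relations across fish. The authors' table of fold changes was not used. In 1 cell a cycle was listed as 0 and taken as missing.

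Cldn15, the gene lists and the tests were chosen with earlier results of these data known. The rule for named genes took cldn15, the 6 other claudins, the 3 of 10 genes with the highest r, eef1a, and igm for its repeated cycles. The genes tlr9, cd4, il10, oclnc and oclnl were named beyond it, after their values were seen. Fish were grouped by diet from the labels. Log2 ratios were tested with 100000 permutations of fish (10000 when leaving out a fish or relating cldn15 to the 10 genes within a diet). F statistics were used for diet effects and spread, two-sided tests for differences, and the largest standardized difference for the 10 pairs. Correlations used values centred by diet, permuted within diets. The threshold of the permutation tests was p = 0.05. Intervals are 95% intervals from the pooled spread within diets, not adjusted over the pairs. For supplemented minus CT, the spread was taken around the mean of all supplemented fish and the CT mean. Alternatives were the linear ratio, ranks, 1/y, cycles alone, another reference and other fish. The second eef1a list, fish without repeated cycles, GH10 against GH5 alone, and the cldn15 to eef1a relation by diet were added after seeing the data. Scripts were tested on simulated data. The depth is 1 cycle per fish and gene, so the error of the wells is unknown. Tests ran in Python 3.11.15 (scipy 1.17.1, numpy 2.4.6), tables in pandas 2.3.3, plots in matplotlib 3.10.9. The qPCR software is not given in the sources used here.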

Additional observations from a re-analysis of the deposited data

How the results depend on the processing

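On the linear scale the one-way, interaction and GH10 minus GH5 comparisons of cldn15 gave p = 0.0412, 0.0234 and 0.0386 (permutation tests), against 0.115, 0.0670 and 0.116 on the log2 scale. The spread was called on the linear scale (0.00484) and in the 39 fish without repeated cycles (0.0464), and not with ranks (0.215), 1/y (0.135), cycles alone (0.584), the mean of the other genes as reference (0.847), the 45 fish with all genes (0.168) or the second eef1a list (0.921). With that list, chosen after seeing the data, the estimates of ingredient, dose and GH10 minus GH5 turned sign (−0.06, −0.03 and −0.02, permutation p = 0.675, 0.828 and 0.99999). Supplemented minus control turned sign with it (permutation p = 0.371), with 1/y (0.860) and with the mean reference (0.759). The cause was not tested. Ingredient and dose kept direction and side of the threshold in the other 8 settings and without any of the 59 fish. The difference in r among diets gave permutation p = 0.0759 with ranks.

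The number of correlated genes went from 5 to 3 on the linear scale and to 0 with cycles alone or eef1a partialled out. It was 6 of 10 without the 2 farthest fish, which added cldn4, and 6 of 9 with the second eef1a list, which added cldn4 and cd4 and lost tlr9 (r = 0.675 for cldn4l, 0.632 for cldn7b and 0.549 for cd4). That list holds the values of the first in another order, and its r with the cldn15 cycle was −0.02. It is shared by all ratios in that setting, and what this adds to r was not tested. With eef1a partialled out, r was −0.0534 for cldn7b, −0.0164 for cd4 and −0.0835 for il10. With the mean reference it was −0.0860 for cldn3, −0.402 for cldn4 and −0.213 for il10. For il10 it was also −0.0292 without the 2 farthest fish and −0.0696 as the mean over diets.

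Leaving out each fish gave permutation p from 0.0286 to 0.254 for the one-way test, 0.0244 to 0.117 for the interaction, 0.0314 to 0.234 for GH10 minus GH5 and 0.0115 to 0.0870 for the spread. For supplemented minus control p ran from 0.624 to 0.999, with the sign turned without CT fish A1 or A11, GB5 fish A2 or GH10 fish A11. The difference in r among diets ran from 0.0109 to 0.0689, r with il10 from −0.0486 to 0.149 and cldn15 over cldn4l from 0.0270 to 0.248. Leaving out fish beyond 3 scaled MADs removed none. No paired analysis was possible because fish numbers only name fish within a diet. One reference gene and 1 cycle per fish limit the precision.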
